A study of Drosophila melanogaster with 10 samples.

Results

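The genes described here encode subunits of the fly cullin-RING ubiquitin ligases SCF and CRL4: ago, slmb, SkpA, Cul1 (named lin19 in the deposited table), Roc1a, Cul4, pic and l(2)dtl. They were chosen by name, not by measured values, and all 8 were found among the 15422 genes of the table. PolyA RNA of whole Drosophila melanogaster embryos of stages 15 to 16, kept at 25 °C, was sequenced. All embryos carried 1 copy of the pros-Gal4 driver. In the dap genotype it drove a UAS transgene of wild-type dacapo, and in dapCRL4, dapPCNA and dapCDI it drove altered dacapo forms whose protein the labels call stabilized. The control genotype had the driver alone (pros-Gal4/+), and each of the 5 genotypes had 2 libraries that the labels call independent. Dacapo, related to mammalian p21 and p27, inhibits cyclin-dependent kinases. The driver follows the gene prospero, which is expressed mainly in the developing nervous system, so the transgene was driven in part of the embryo while the RNA came from all of it. No ago mutant was among the libraries, although the series title names mutations in ago.

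Cullin-RING ligases attach ubiquitin to proteins and thereby mark most of them for destruction by the proteasome. In the SCF type the scaffold Cul1 holds the RING protein Roc1a, which recruits the ubiquitin-charged enzyme, and the adaptor SkpA, which in turn holds an exchangeable F-box protein that recognises the substrate. Ago, the fly Fbw7, is the F-box protein that binds Cyclin E and Myc, and Slmb, the fly beta-TrCP, binds Armadillo, Cubitus interruptus and Cactus among others. In the CRL4 type the scaffold is Cul4, the adaptor is Pic (the fly DDB1) and the receptor is L(2)dtl (the fly Cdt2), again with Roc1a. CRL4 with Cdt2 destroys proteins that carry a PIP degron while they are bound to PCNA on DNA. The activity of these ligases is controlled largely through the assembly and modification of the proteins, and the values below are of transcripts only.

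The transcripts differed widely in abundance, in the same order in almost every library. Levels are given as RPKM (reads scaled to transcript kilobases and to megareads), so that genes of different length can be compared. SkpA was at 395 to 452 RPKM over the 10 libraries, Roc1a at 284 to 358 RPKM and Cul1 at 109 to 121 RPKM. Slmb was at 44.7 to 58.5 RPKM, ago at 31.2 to 43.7 RPKM and Cul4 at 24.4 to 27.8 RPKM. The order closed with pic at 20.7 to 26.9 RPKM and l(2)dtl at 10.1 to 14.0 RPKM. Each gene exceeded the next in 10 of 10 libraries, apart from Cul4 and pic, where Cul4 was higher in 8 of 10 and the ratio of Cul4 to pic ran between 0.974 and 1.22. The scaffold Cul1 thus stood at 4.20 to 4.72 times the level of the scaffold Cul4. Among the other cullins, Cul3 was at 39.0 to 52.0 RPKM, Cul2 at 36.6 to 43.4 RPKM and Cul5 at 14.2 to 16.8 RPKM. Roc1b, the second Roc1 gene, was at 13.4 to 19.2 RPKM. The other Skp1 genes were far below SkpA, with SkpB at 1.24 to 4.52 RPKM as the highest of them and SkpF at no more than 0.172 RPKM.

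**Figure D1:**
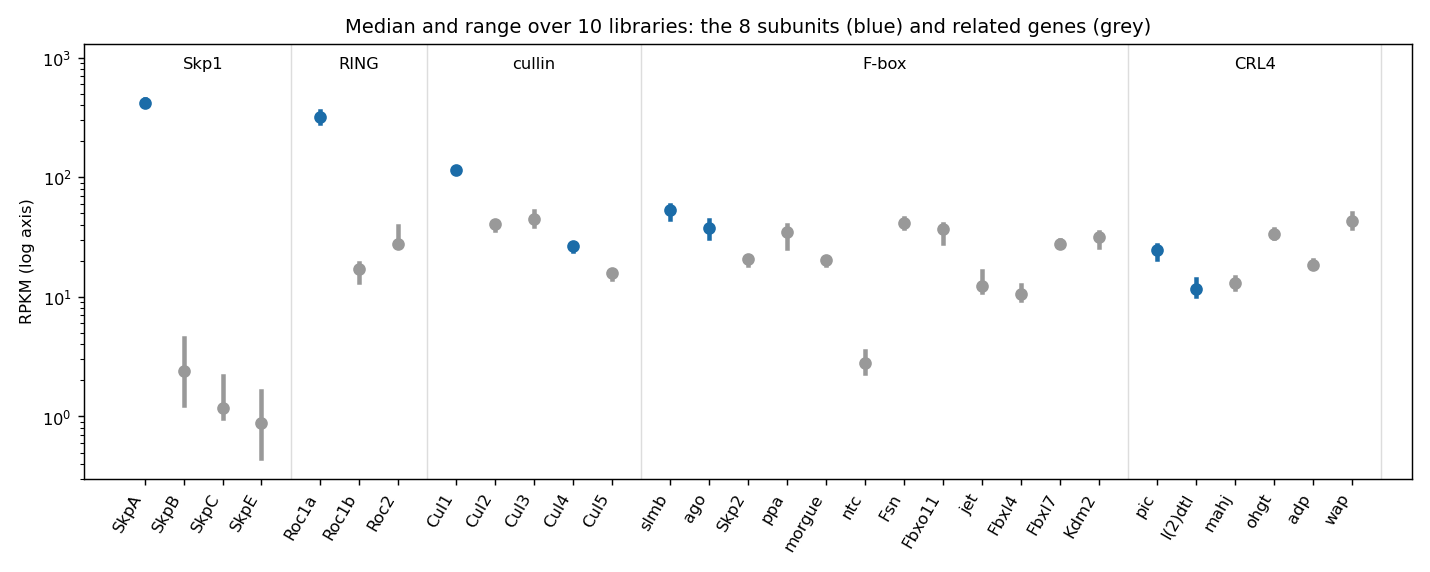
Transcript level in RPKM (logarithmic axis) of the 8 subunit genes in blue and of related genes of the same pathway in grey; points are medians and lines the range over the 10 libraries. SkpA and Roc1a lie above the other subunits, and l(2)dtl is the lowest of the 8.

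Estimated depth was 17.1 to 25.8 megareads counted per library, highest in the 2 controls, and the labels give 20.7 to 43.4 megareads of 50 bases. At that depth the members had between 539 and 18850 estimated reads, which corresponds to a counting error of 0.062 to 0.013 on the log2 scale. The dap gene itself, as a check of the transgenes, was at 85.8 and 83.4 RPKM in dap, 81.0 and 75.7 RPKM in dapCRL4, 70.7 and 73.3 RPKM in dapPCNA, 170.2 and 156 RPKM in dapCDI, and 70.5 and 70.7 RPKM in the control. The transcript of dap was thus raised most in dapCDI, while in dapPCNA its log2 difference from the control was 0.03 (limma adjusted p = 0.918). All 4 comparisons with the control share its 2 libraries. Tests are limma's moderated test on log2 RPKM, with Benjamini-Hochberg adjustment over the 10396 genes tested, and a gene was called at an adjusted p under 0.05.

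The substrate receptor ago was lower in the dacapo genotypes than in the control, and the call was reached in dap and dapCDI. Its exons span 5517 bases (FBgn0041171, chromosome arm 3L, positions 4246343 to 4254306, minus strand, build BDGP6). It was at 36.0 and 33.4 RPKM in dap, 39.9 and 37.3 RPKM in dapCRL4, 40.3 and 37.6 RPKM in dapPCNA, 31.2 and 35.7 RPKM in dapCDI, and 43.5 and 43.7 RPKM in the control. All 8 transgene libraries lay below both controls, a position held by 7.87% of all genes tested. The log2 difference from the control was −0.33 in dap (95% interval −0.52 to −0.14, limma adjusted p = 0.0392), and the level fell by 20.6%. In dapCDI it was −0.39 (interval −0.58 to −0.19, limma adjusted p = 0.0390), and the level fell by 23.5%. In dapCRL4 it was −0.18 (limma adjusted p = 0.343) and in dapPCNA −0.16 (limma adjusted p = 0.525), neither past the threshold. Both calls were close to the threshold: that in dap ended without either library of dap, dapCRL4, dapPCNA or the control (adjusted p 0.0542 to 0.204), and that in dapCDI without dapCDI 1 or either library of dapCRL4, dapPCNA or the control (adjusted p 0.0564 to 0.180). They also ended with no filter (adjusted p = 0.0578 in dap, 0.0605 in dapCDI) and with no mean-variance trend (0.0821 and 0.0874), and that in dapCDI when its libraries and the controls were fitted alone (0.141).

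The other F-box gene of the set, slmb, was also highest in the 2 controls, without reaching a call. Its locus is on arm 3R (FBgn0283468, positions 21119252 to 21127485, minus strand) with 3492 exon bases. It was at 52.6 and 46.7 RPKM in dap, 53.8 and 50.1 RPKM in dapCRL4, 54.1 and 53.1 RPKM in dapPCNA, 44.7 and 51.3 RPKM in dapCDI, and 58.5 and 56.5 RPKM in the control. Again all 8 transgene libraries lay below both controls. The log2 difference was −0.21 in dap (limma adjusted p = 0.126) and −0.26 in dapCDI (interval −0.46 to −0.07, limma adjusted p = 0.083). In dapCRL4 and dapPCNA it was −0.15 and −0.10. The ratio of ago to slmb within a library ran from 0.684 to 0.773. Its mean was 0.699 ± 0.022 in dap, 0.743 ± 0.003 in dapCRL4, 0.727 ± 0.026 in dapPCNA, 0.696 ± 0.002 in dapCDI and 0.758 ± 0.021 in the control (SD, n = 2 each). This ratio is of values as deposited and carries the exon length trend described below. After correction for that trend the log2 differences of ago and slmb were −0.14 and −0.16 in dap. In dapCDI they were −0.19 and −0.19. Over the 10 libraries the log2 levels of ago and slmb had a Pearson r of 0.952, given as a description since the libraries share genotypes and depth.

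**Figure D2:**
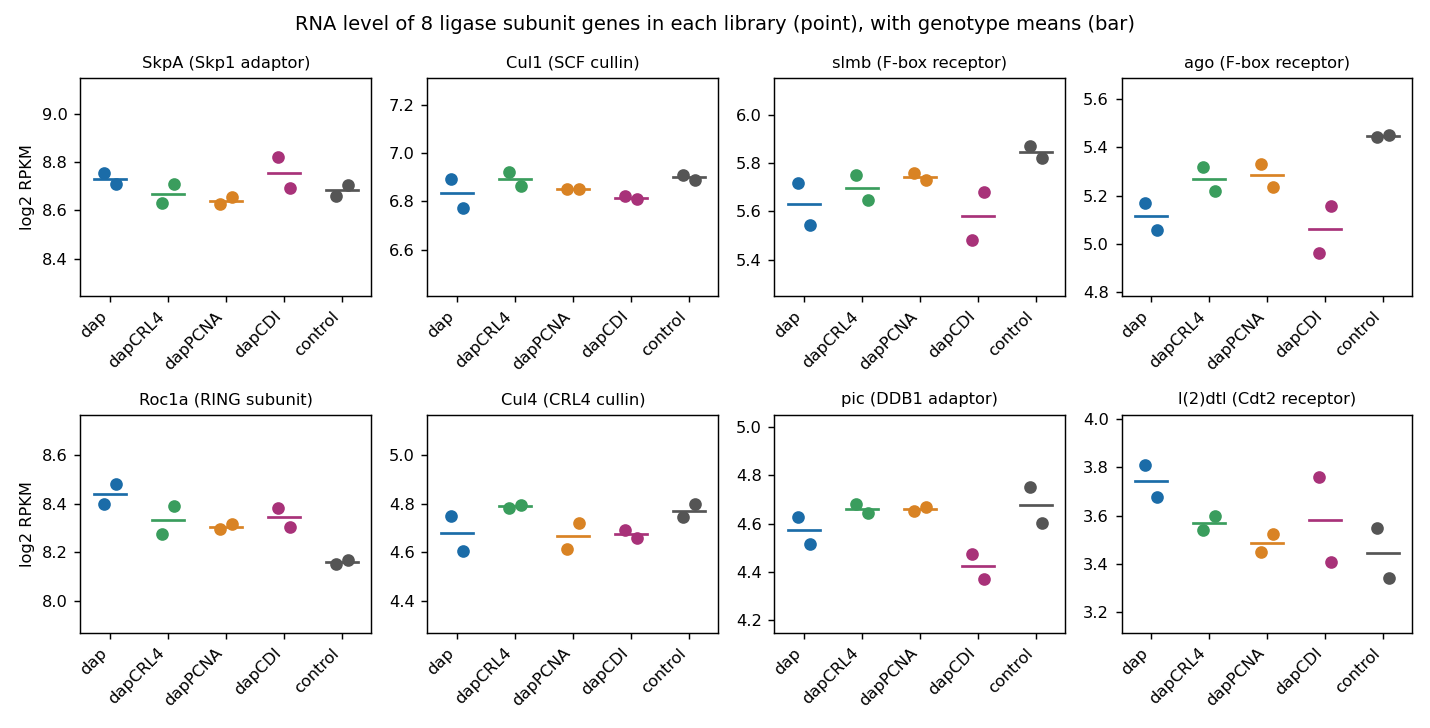
Log2 RPKM of the 8 subunit genes in each of the 10 libraries, 1 panel per gene with the same span of the vertical axis; points are libraries and bars the genotype means (n = 2). Ago and slmb are highest in the 2 control libraries, Roc1a is lowest there, and Cul1 is nearly level.

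The RING subunit Roc1a, shared by both ligase types, went the other way and was called in dap. It lies on the X chromosome (FBgn0025638, positions 647304 to 648597, plus strand) and has 1229 exon bases. It was at 338 and 358 RPKM in dap, 310.2 and 336 RPKM in dapCRL4, 314 and 318 RPKM in dapPCNA, 334 and 316 RPKM in dapCDI, and 284 and 287 RPKM in the control. All 8 transgene libraries lay above both controls, as they did in 12.4% of the genes tested. The log2 difference was 0.28 in dap (interval 0.14 to 0.43, limma adjusted p = 0.0278), 1.22-fold. It was 0.17 in dapCRL4 (limma adjusted p = 0.227), 0.15 in dapPCNA (limma adjusted p = 0.432) and 0.19 in dapCDI (interval 0.04 to 0.33, limma adjusted p = 0.090). The call in dap ended without dap 2 or either library of dapPCNA or the control, with an adjusted p of 0.0502 to 0.154, and with no mean-variance trend (adjusted p = 0.0730). Relative to the scaffold Cul1, Roc1a stood at 3.06 ± 0.31 in dap, 2.72 ± 0.23 in dapCRL4, 2.74 ± 0.03 in dapPCNA, 2.89 ± 0.10 in dapCDI and 2.40 ± 0.05 in the control (SD, n = 2 each). This ratio is of values as deposited and carries the exon length trend described below. After correction for that trend the log2 difference from the control in dap was 0.08 for Roc1a and 0.04 for Cul1.

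The adaptor SkpA and the scaffold Cul1 were called in no comparison, and no comparison with the control gave either an unadjusted p under 0.05 in limma. SkpA (FBgn0025637, X chromosome, positions 656114 to 657899, plus strand, 1786 exon bases) was at 432 and 418 RPKM in dap, 396 and 418 RPKM in dapCRL4, 395 and 403 RPKM in dapPCNA, 452 and 413 RPKM in dapCDI, and 405 and 418 RPKM in the control. Its log2 differences from the control ran from −0.04 in dapPCNA to 0.07 in dapCDI. Cul1 (FBgn0015509, arm 2R, positions 7916856 to 7921579, plus strand, 4141 exon bases) was at 119 and 109 RPKM in dap, 121 and 116 RPKM in dapCRL4, 116 RPKM in both dapPCNA libraries, 113 and 112 RPKM in dapCDI, and 120.3 and 118 RPKM in the control. Its log2 differences lay between −0.09 and −0.01, with intervals that stayed within −0.23 and 0.13. The whole range of Cul1 over the 10 libraries was 0.148 on the log2 scale, and 1.26% of the genes tested had a smaller one. The median range of all genes tested was 0.462.

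None of the 3 subunits particular to CRL4 was called against the control in any genotype by limma, where l(2)dtl in dap and pic in dapCDI had an unadjusted p under 0.05. The scaffold Cul4 (FBgn0033260, arm 2R, positions 8102260 to 8106318, minus strand, 3409 exon bases) was at 26.9 and 24.4 RPKM in dap, 27.6 and 27.7 RPKM in dapCRL4, 24.5 and 26.4 RPKM in dapPCNA, 25.9 and 25.3 RPKM in dapCDI, and 26.8 and 27.8 RPKM in the control. Its log2 differences were −0.10 to 0.02. The adaptor pic (FBgn0260962, arm 3R, positions 13052245 to 13056725, plus strand, 3881 exon bases) was at 24.7 and 22.9 RPKM in dap, 25.6 and 25.0 RPKM in dapCRL4, 25.1 and 25.4 RPKM in dapPCNA, 22.3 and 20.7 RPKM in dapCDI, and 26.9 and 24.3 RPKM in the control. Only in dapCDI did both libraries of pic lie below both controls, with a log2 difference of −0.25 (interval −0.44 to −0.07, limma adjusted p = 0.079). Against dap, pic in dapCDI differed by −0.15 (interval −0.34 to 0.04, limma adjusted p = 0.602), without a call. The dapCDI libraries were not tested against dapCRL4 or dapPCNA. The receptor l(2)dtl (FBgn0013548, arm 2R, positions 23702477 to 23705403, plus strand, 2653 exon bases) was at 14.0 and 12.8 RPKM in dap, 11.6 and 12.1 RPKM in dapCRL4, 10.9 and 11.5 RPKM in dapPCNA, 13.6 and 10.6 RPKM in dapCDI, and 11.7 and 10.1 RPKM in the control. Both dap libraries lay above both controls (log2 difference 0.30, interval 0.01 to 0.58, limma adjusted p = 0.142), while the other genotypes overlapped the control. The 2 dapCDI libraries of l(2)dtl differed by 0.354 on the log2 scale, the widest gap between replicates of any of the 8 genes. Within a library, l(2)dtl stood at 0.562 ± 0.006 of the level of pic in dap, 0.469 ± 0.022 in dapCRL4, 0.443 ± 0.012 in dapPCNA, 0.561 ± 0.068 in dapCDI and 0.426 ± 0.013 in the control (SD, n = 2 each). This ratio too is of values as deposited. After the length correction the log2 difference from the control in dap was 0.27 for l(2)dtl and −0.02 for pic.

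Counted over the 8 genes, 1 was called higher and 1 lower in dap, where 11.8% of all genes tested were called (8.53% higher and 3.27% lower). In dapCDI none was called higher and 1 lower, where 7.56% of all genes were called (4.73% higher and 2.83% lower). No member was called in dapCRL4 or dapPCNA by limma, where 1.45% and 1.3% of all genes were called, and in each of them Roc1a was the 1 member with an unadjusted p under 0.05 (16.1% and 11.3% of all genes). At that threshold there were 4 members in dap and 4 in dapCDI, beside 32.8% and 31.2% of all genes. Since so few genes of the whole table were called in dapCRL4 and dapPCNA, counts of 0 among 8 are near the background there. The libraries did not overlap the control's for 5 members in dap (63.7% of all genes tested), 3 in dapCRL4 (53.7%), 6 in dapPCNA (49.1%) and 6 in dapCDI (59.1%). The median log2 difference of the 8 genes was −0.08 in dap, −0.01 in dapCRL4 and −0.09 in dapCDI, beside 0.06, 0.04 and 0.04 over all genes tested. Across the 4 comparisons no interval of a member went beyond −0.58 (ago in dapCDI) or 0.58 (l(2)dtl in dap). A joint test over the 5 genotypes, limma's moderated F test, called 0 of the 8 (3.09% of all genes), with an unadjusted p under 0.05 for 2 of them, ago (adjusted p = 0.0956) and Roc1a (adjusted p = 0.120). The share of all genes under 0.05 in the F test was not computed.

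**Figure D3:**
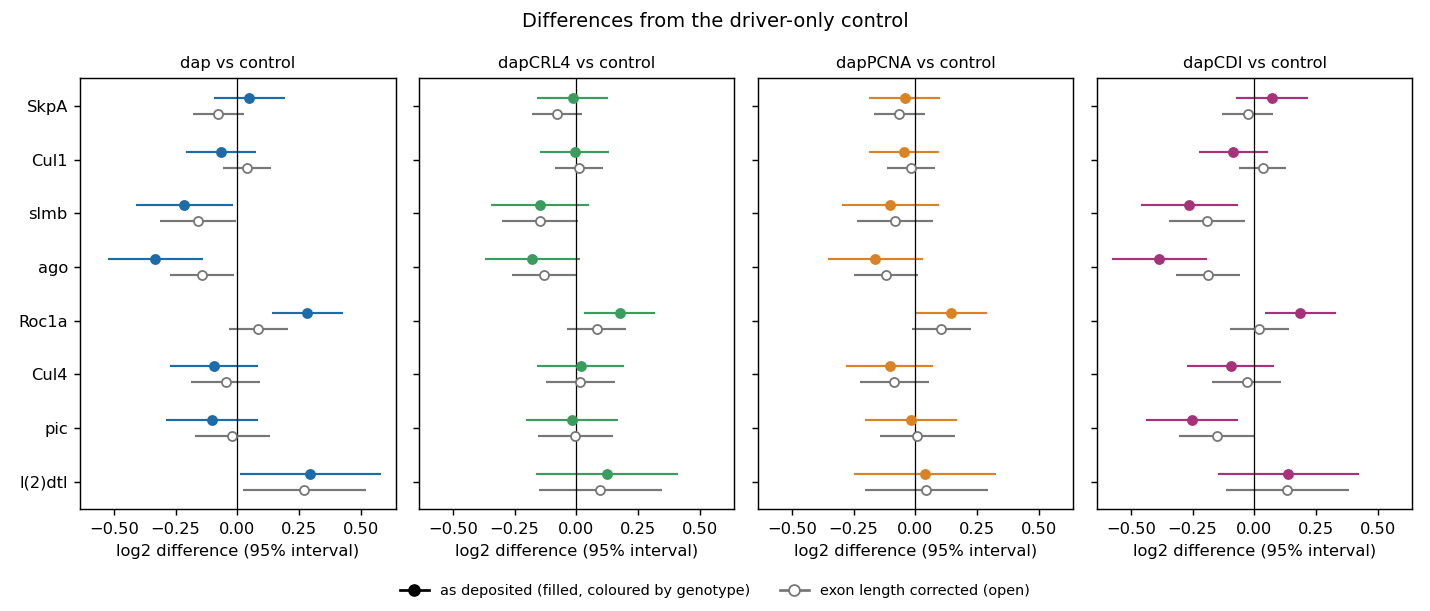
Log2 difference from the control for each subunit gene and dacapo genotype, with 95% intervals from the limma fit; filled symbols are the values as deposited and open symbols those after correction for exon length. Ago in dap and dapCDI and Roc1a in dap are the 3 called differences, and all 3 lie nearer to 0 after the correction.

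Between each stabilized form and wild-type dacapo, none of the 8 genes was called by limma, and none had an unadjusted p under 0.05. Of all genes tested, 0.164% were called for dapCRL4 against dap, 1.33% for dapPCNA against dap and 0.144% for dapCDI against dap. An unadjusted p under 0.05 in limma was held by 14.7%, 24.0% and 10.4% of all genes in the same order. Libraries did not overlap for 6, 6 and 2 members in these comparisons, against 50.0%, 59.9% and 32.5% of all genes tested. For ago the log2 difference from dap was 0.15 in dapCRL4 (interval −0.04 to 0.35), 0.17 in dapPCNA (−0.02 to 0.36) and −0.05 in dapCDI (−0.25 to 0.14). For Roc1a it was −0.11 in dapCRL4 (−0.25 to 0.04), −0.14 in dapPCNA (−0.28 to 0.01) and −0.10 in dapCDI (−0.24 to 0.05). For l(2)dtl it was −0.17, −0.26 and −0.16, with the dapPCNA interval running from −0.54 to 0.03. Ago thus stood between the dap and control levels in both libraries of dapCRL4 and dapPCNA, and overlapped dap in dapCDI.

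Exon length moved with these differences. Across 10251 genes, Spearman's rho of exon length with the log2 difference from the control was −0.572 in dap and −0.548 in dapCDI, and closer to 0 in dapCRL4 (−0.299) and dapPCNA (−0.216), so that long transcripts were lower and short ones higher in the transgene libraries. The 3 called values had the direction of that trend: 89.2% of the genes tested have shorter exons than ago, and 26.0% have shorter exons than Roc1a. The trend at the length of ago came to −0.19 in dap and −0.20 in dapCDI, and that at the length of Roc1a to 0.20 in dap. With the trend subtracted from each library, ago differed by −0.14 in dap (interval −0.27 to −0.02, limma adjusted p = 0.181). In dapCDI ago differed by −0.19 (interval −0.32 to −0.06, limma adjusted p = 0.0986). Roc1a differed by 0.08 in dap (interval −0.03 to 0.20, limma adjusted p = 0.381). No member was then called, where 3.38% of genes were called in dap and 3.45% in dapCDI. After the subtraction the 8 transgene libraries were still all below both controls for ago and for slmb, as for 7.87% of the genes with a length. For Roc1a 7 of 8 were above both controls and 1 below, where 8.97% of genes had all 8 above. For SkpA 7 of 8 were then below both controls, and for Cul1 6 were above and 2 below. Shares of all genes for these partial counts were not computed. The Pearson r of ago with slmb was then 0.815, and that of ago with Roc1a, −0.856 as deposited, was −0.061. What set the length trend was not tested.

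**Figure D4:**
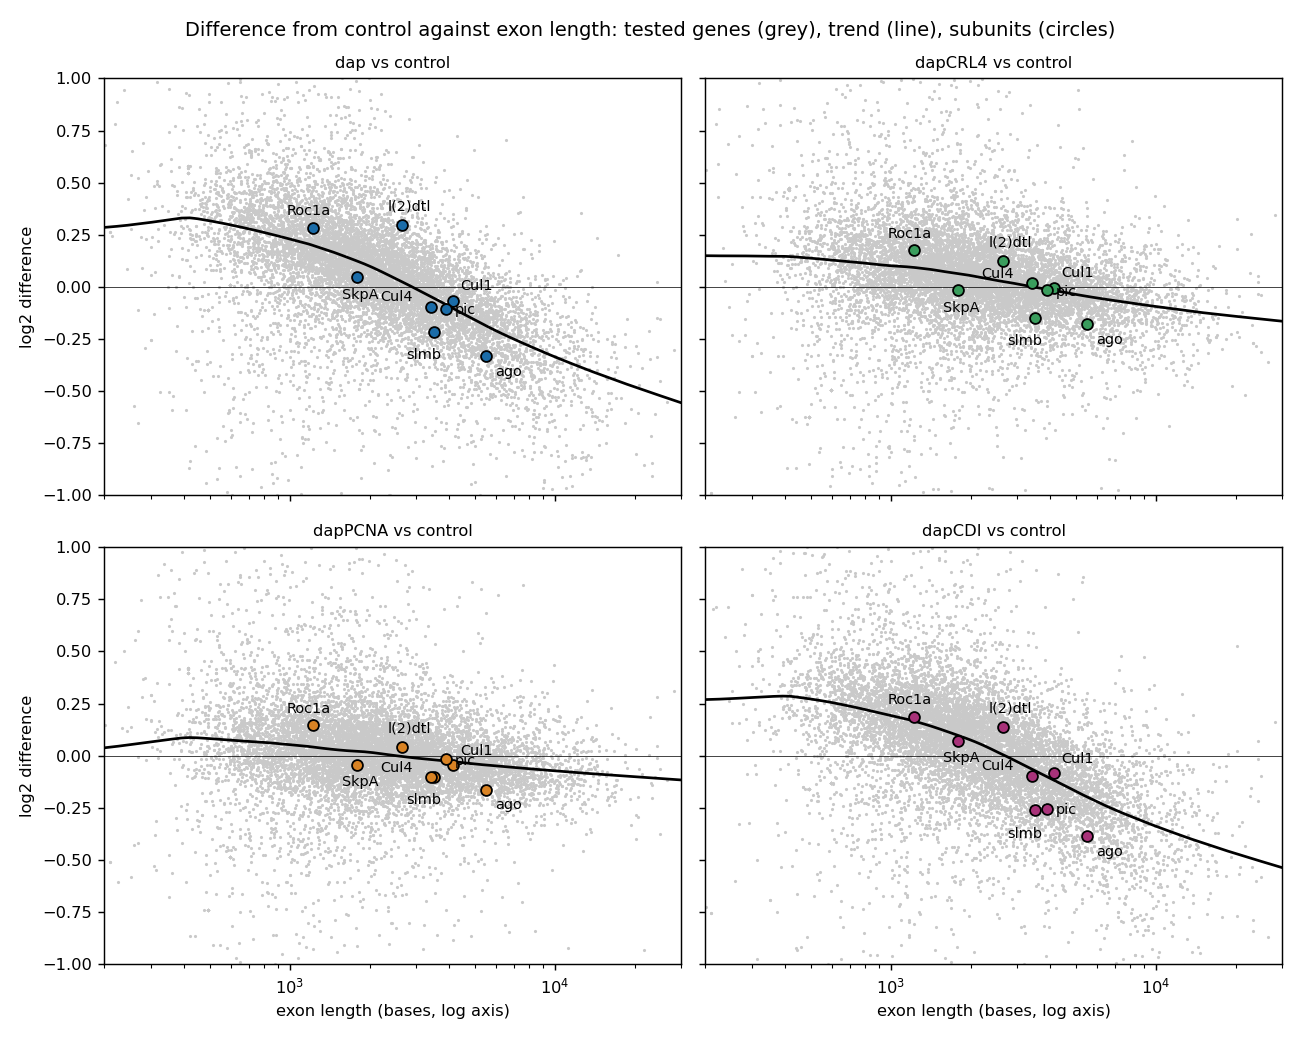
Log2 difference from the control against exon length in bases (logarithmic axis) for the 4 dacapo genotypes; grey points are the genes tested, the black line their trend and circles the 8 subunit genes, with values beyond −1 and 1 not drawn. Ago, at 5517 bases, and Roc1a, at 1229 bases, sit on opposite arms of the slope in dap and dapCDI.

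Summed markers of some cell types also separated the controls from the transgene libraries. The summed level of 4 of 5 listed neuron markers, none of them at 0, was 77.6 to 117 RPKM in dap, 105 to 125 RPKM in dapCRL4, 108 to 117 RPKM in dapPCNA, 64.9 to 98.5 RPKM in dapCDI, and 133 to 142 RPKM in the control. The summed level of 3 of 3 listed fat body markers, none of them at 0 in all libraries, was 590.0 to 624 RPKM in dap, 470 to 481 RPKM in dapCRL4, 535 to 595 RPKM in dapPCNA, 632 to 767 RPKM in dapCDI, and 397 to 442 RPKM in the control. The neuron sum was thus highest, and the fat body sum lowest, in the same 2 control libraries in which ago and slmb were highest and Roc1a lowest. The sums are of RPKM as deposited, without the exon length correction. Of the 3 fat body genes, 2 reached 1 RPKM in 2 or more libraries, as did all 4 neuron genes. A sum can rest mainly on its most abundant gene, and whether the single markers share its direction is not given here. Of the other lists, the sum of 4 maternal or adult genes also separated the controls from the rest, at 2.82 to 4.54 RPKM in the transgene libraries against 1.73 to 2.10 RPKM in the controls. Only 1 of these 4 genes reached 1 RPKM in 2 or more libraries, so this sum is of low values. The lists for neuroblast, glia, muscle, epidermis, hemocyte, gut, trachea and salivary gland, and germ cell did not separate them. The part of these cell types in the subunit differences was not tested. In whole embryos, fewer cells that express a gene and less RNA per cell cannot be told apart.

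The positions of the genes bear on some values, because the sources used here do not give whether counting respected the strand. Cul1 shares 575 exon bases with Or43b on the opposite strand, which was at 5.70 to 8.95 RPKM. Roc1a shares 115 exon bases with Hmt4-20 (22.3 to 33.0 RPKM), and Cul4 shares 47 with Tmem63 (28.3 to 35.9 RPKM), both on the opposite strand. Roc1a and SkpA lie 7516 bases apart with Hmt4-20 between them. In dap the log2 difference of Hmt4-20 was −0.39 (limma adjusted p = 0.0563), that of Roc1a 0.28 and that of SkpA 0.05. The gene nearest to ago, pav, which encodes a kinesin of cytokinesis, lies 109 bases away on the other strand. Its log2 difference was −0.97 in dapCRL4 (limma adjusted p = 0.0152), −1.08 in dapPCNA (limma adjusted p = 0.00888) and −0.85 in dapCDI (limma adjusted p = 0.0235). In dap it was −0.03 (limma adjusted p = 0.920). These values followed another order than those of ago, and any part of the shared position was not tested.

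The genes whose log2 level ran most nearly in parallel with ago over the 10 libraries were ATP7 (Pearson r = 0.988), tinc (r = 0.980) and CG8184 (r = 0.979). Their r after the exon length correction was 0.937, 0.882 and 0.391, and 368 genes had an r of at least 0.9 with ago before it. For Roc1a the most alike were CG14544 (r = 0.987), Mtch (r = 0.982) and CG5862 (r = 0.971), among 179 genes with an r of at least 0.9. After the correction their r was 0.598, 0.928 and 0.879. These are descriptions over 10 libraries that share genotypes, depth and the length trend.

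Of the wider pathway, 54 genes were listed, 53 were found in the table and 50 passed the filter on low values. In dap, where 11.8% of all genes were called, 4 of the 50 were called higher and 1 lower. In dapCDI, where 7.56% were called, 2 were called higher and 1 lower, and in dapCRL4 and dapPCNA none. These counts are near or below the background. With an unadjusted p under 0.05 in limma there were 16 of the 50 in dap and 14 in dapCDI, but 1 in dapCRL4 and 5 in dapPCNA. Of all genes tested, 32.8% had one in dap and 31.2% in dapCDI, and 16.1% in dapCRL4 and 11.3% in dapPCNA. The ubiquitin-like modifier Nedd8, whose attachment activates cullins, was at 50.4 and 44.2 RPKM in dap, against 33.9 and 32.1 RPKM in the control (log2 difference 0.52, limma adjusted p = 0.0191). Both dap libraries stood above both controls. It was the only 1 of the 8 genes of neddylation and cullin exchange to be called in dap.

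The COP9 signalosome removes Nedd8 from cullins. Its subunit CSN4 was at 31.1 and 30.3 RPKM in dap, against 24.1 and 24.6 RPKM in the control (log2 difference 0.34, limma adjusted p = 0.0243). All 8 tested COP9 genes had an estimate above 0 in dap, with a median of 0.27 beside 0.06 over all genes, and of 0.09 after the length correction. All 8 were above 0 in dapCDI too, with a median of 0.17 beside 0.04, and of 0.04 after the correction. There were 7 above 0 in dapCRL4 and 4 in dapPCNA. The share of all genes above 0 was not computed. CSN4 was called lower in dapPCNA than in dap, at 23.3 and 23.8 RPKM in dapPCNA, against 31.1 and 30.3 RPKM in dap (log2 difference −0.38, limma adjusted p = 0.0406). Without single libraries each of these calls could be lost: that of Nedd8 in 4 of 10 cases, that of CSN4 against the control in 4, and that of CSN4 against dap in 8.

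Among alternative partners, the RING gene Roc2 was at 38.7 and 31.9 RPKM in dapCDI, against 26.6 and 26.5 RPKM in the control (log2 difference 0.41, limma adjusted p = 0.0489). That call was lost in 9 of the 10 fits without 1 library, and after the length correction the difference was 0.18 (limma adjusted p = 0.140). Roc1b was at 17.3 and 17.6 RPKM in dap, against 13.4 and 14.5 RPKM in the control (log2 difference 0.33, limma adjusted p = 0.0657). It was not called, and after the length correction its difference was 0.01 (limma adjusted p = 0.959). Wap, a WD40 protein listed with the Cul4 receptors, was at 37.9 and 37.5 RPKM in dapCDI, against 50.6 and 49.1 RPKM in the control (log2 difference −0.40, limma adjusted p = 0.0361). Its adjusted p after the length correction was 0.0318, and 5 of the 10 fits without 1 library lost the call. Of the 10 other F-box genes none was called against the control by limma, with an unadjusted p under 0.05 for 2 in dap and 4 in dapCDI, near the shares of all genes given above.

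Of the 12 known substrates and cofactors in the table, PCNA, the sliding clamp on which PIP degrons are read, was at 114 and 108 RPKM in dap, against 86.2 and 69.8 RPKM in the control (log2 difference 0.52, limma adjusted p = 0.0279). Myc, a growth regulator bound by Ago, was at 25.7 and 15.7 RPKM in dap, against 34.0 and 34.4 RPKM in the control (log2 difference −0.77, limma adjusted p = 0.0441). The dap libraries of Myc were far apart, and its call was lost in 7 of the 10 fits without 1 library, that of PCNA in 3. The gene dap was called in dapCDI (log2 difference 1.21, limma adjusted p = 2.28e-05) and in dap (0.26, limma adjusted p = 0.0405). The call in dapCDI held in all 20 alternative fits, and that in dap was lost in 8 of the 10 fits without 1 library. CycE, the Cyclin E gene, was at 14.9 and 11.6 RPKM in dap, against 13.4 and 11.2 RPKM in the control, and no call was made. Dup, the fly Cdt1, was at 28.1 and 24.8 RPKM in dap, against 24.7 and 22.2 RPKM in the control, also without a call. After the length correction no gene called in dap from the pathway lists kept its call, with an adjusted p of 0.181 for Nedd8, 0.119 for CSN4, 0.105 for PCNA, 0.0962 for Myc and 0.0511 for dap. The call of CSN4 in dapPCNA against dap was lost too (adjusted p = 0.0919). Of the same lists SkpC, at 1.21 and 1.00 RPKM in dap against 2.20 and 1.83 RPKM in the control, became called in dap, with a corrected log2 difference of −1.15 (limma adjusted p = 0.0483) beside −0.86 as deposited (limma adjusted p = 0.0775). SkpC lay near the filter of 1 RPKM and its counting error was not estimated. The corrected fit was not repeated without single libraries.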

How the data were processed

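PolyA RNA of 10 embryo libraries was analysed, 2 for each of 5 genotypes. The deposited values are log2 of total RPKM on the build BDGP6, per the submitters' processing notes; the sources used here name no aligner, counter or strand setting. A floor value marks genes without reads, listed here as 0 RPKM. Gene names were matched to the Ensembl annotation of BDGP6 for positions and exon lengths. Depth was estimated from genes whose values stand at 1, 2 or 3 reads.

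In total 10396 genes reached 1 RPKM in 2 or more libraries. All libraries were fitted together in limma 3.58.1 under R 4.3.3, with a mean for each genotype, a trend of the variance on the mean (prior degrees of freedom 4.73) and two-sided tests. P-values were adjusted by Benjamini-Hochberg over all genes tested, and intervals are 95%. The scripts were tested on simulated data. The length correction subtracted a lowess trend (span 0.3) on log exon length from each library's deviations. P-values measure the spread between libraries called independent in the labels.

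Alternatives were log2(RPKM + 1), no filter, a mean of at least 5 RPKM, quantile normalization, median centring, no mean-variance trend, a replicate block with and without the length correction, a fit of the compared groups only, the length correction, and leaving out each library. All members are described; the 3 genes most alike by Pearson r were named for ago and Roc1a, and pathway genes where called. Roc1b, CycE, dup, pav, Hmt4-20, SkpC and the Skp1 and cullin genes named by level lie outside that rule and were chosen after their values were seen. Members, pathway lists and markers were chosen with earlier results of these data known. Of the listed genes, E2f1 and nSyb had no unique match and are not reported.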

Additional observations from a re-analysis of the deposited data

How the results depend on the processing

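No result on the 8 genes that was called changed direction under any of the 20 alternatives. Of 1120 refitted member values, 34 lost a call and 2 gained one; 58 values that were never called changed sign. The number of members called in dap against the control, 2 in the report, became 1 (Roc1a) with no filter, 0 without the mean-variance trend, 0 with the exon length correction, 1 (Roc1a) with a replicate block and 0 with the block and the length correction. It ran from 0 to 2 when each library was left out. For dapCDI against the control, 1 in the report (ago), it became 0 with no filter, without the trend, in a fit of the compared groups only, with the length correction, with the replicate block, and with the block and the length correction; it ran from 0 to 3 over libraries left out. It was 3 (ago, Roc1a and slmb) without dapCDI 2. The F test over 5 genotypes called 0 to 2 members over libraries left out, and the other comparisons called 0 throughout. Where 1 library remained of a genotype, its spread was taken to equal that of the others.

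Same-numbered libraries did not deviate together (correlation −0.053 to 0.089 over the 10 pairs of genotypes), so the numbers do not pair the samples. Over all genes, calls in dap against the control numbered 1227, from 73 to 2236 over libraries left out, 346 with the length correction and 889 with the replicate block; in dapCDI they numbered 786, from 82 to 2604, 354 and 253. Higher calls made up 72.3% in dap, 56.5% with quantile normalization, 62.5% with median centring and 55.5% with the length correction. In dapPCNA against dap they made up 26.1%, 38.6%, 39.4% and 36.5%. The cause of these changes was not tested.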
